A study of Mus musculus with 13 samples.

Results

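Cytosolic heat shock chaperones were followed here as a set of 10 named genes (Hspa1a, Hspa1b, Hspa8, Hsph1, Dnajb1, Hsp90aa1, Hsp90ab1, Hspb1, Bag3 and Hspe1) in the mouse pancreas. They were found by symbol through their Entrez identifiers, and all 10 were among the 23366 genes of the expression table. Membership was set by name, from a list chosen with earlier results of these data known, and no gene was removed by a filter on low values. One name goes against the title of the set, because Hspe1 encodes the small chaperonin of the mitochondrial matrix and is not a cytosolic protein.

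Heat shock chaperones bind unfolded or partly folded proteins and release them in cycles of ATP binding and hydrolysis. In the cytosol the HSP70 proteins (Hspa8 at rest, Hspa1a and Hspa1b under stress) receive clients from J-domain proteins such as Dnajb1, and exchange factors of the HSP110 (Hsph1) and BAG (Bag3) families release them, while HSP90 (Hsp90aa1 and Hsp90ab1) acts later on signalling proteins and Hspb1 holds clients without ATP. The stress-inducible members are activated by heat shock factor 1 (Hsf1), which binds heat shock elements, runs of alternating GAA and TTC units. The exocrine pancreas makes very large amounts of secreted protein, most of which is folded in the endoplasmic reticulum by a separate set of chaperones that includes Hspa5.

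RNA was sequenced from the pancreas of 13 female mice with one rRNA-depleted library per mouse. All mice were of the reprogrammable i4F-B line, in which the reprogramming factors Oct4, Sox2, Klf4 and Myc (OSKM) are expressed from a ubiquitous, doxycycline-dependent transgene that sits in the Pparg gene. The 4 young mice were 13 weeks and the 5 old mice 55 weeks of age, and neither group received doxycycline. The 4 old-OSKM mice were given doxycycline for 7 days at 55 weeks and then recovered for 2 weeks, so that the labels give their age as 58 weeks. Doxycycline, OSKM and the difference in age cannot be told apart in the old-OSKM group, because no old mouse without an active transgene received the drug. Values are log2 RPKM, that is reads scaled to transcript length and to the mapped total, quantile normalised between the mice by the authors, and they are relative to transcript length, so that levels of different genes can be set side by side. The table holds no counts, hence the counting error behind a value cannot be stated. A bulk sample does not separate fewer cells of a type from less RNA per cell.

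The promoters of the members whose transcripts respond to stress are shown first, because the heat shock element is the sequence through which Hsf1 reaches them. RefSeq windows of 300 bases (250 before and 50 after the start site, build GRCm38.p6, the assembly also called mm10) were given for 7 of the 10 members. The windows were searched on both strands for GAANNTTC and TTCNNGAA (2 units), GAANNTTCNNGAA and TTCNNGAANNTTC (3 units), and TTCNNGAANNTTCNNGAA and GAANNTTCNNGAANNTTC (4 units), with overlapping matches counted. Each longer motif contains the shorter ones, and no mismatch was allowed, so runs with an inexact unit were not counted as such. At least 2 units were found in 6 of these 7 members and in 17% of the 27025 genes with a window, at least 3 units in 2 members and in 0.662% of genes, and 4 units in 1 member and in 0.0296% of genes (8 genes).

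The first 2 stretches show the 150 bases before the start sites of Hspa1a (chr17:34972157-34972306, minus strand) and Hspa1b (chr17:34959239-34959388, minus strand), a pair of neighbouring genes for the inducible HSP70, with the exact 2-unit match in capitals.
Hspa1a: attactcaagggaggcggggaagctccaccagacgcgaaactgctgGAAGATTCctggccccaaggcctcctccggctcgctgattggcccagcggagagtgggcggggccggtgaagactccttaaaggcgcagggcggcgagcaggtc
Hspa1b: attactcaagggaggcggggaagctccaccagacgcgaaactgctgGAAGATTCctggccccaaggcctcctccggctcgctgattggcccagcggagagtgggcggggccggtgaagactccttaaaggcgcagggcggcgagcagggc
Their whole windows were identical at 296 of 300 positions (98.7%). The 4 differences, with the Hspa1a base first and the position counted from 1 at the 5′ end of the window, were C44T, T47C, T249G and C276T, and none of them fell in the 2-unit match, which begins at base -104 in both genes. Just before this match both genes read GAA and then TGC, in place of TTC, at the same spacing. The exact search did not count these units.

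The next 3 stretches show how the exact matches differ among members. Hspe1 (chr1:55088053-55088082, plus strand) held 4 units in a row, Hsph1 (chr5:149636351-149636380, minus strand) held a single 2-unit match before its start site, and Hspb1 (chr5:135887786-135887845, plus strand) held 2 separate matches.
Hspe1: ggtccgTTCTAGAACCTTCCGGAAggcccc
Hsph1: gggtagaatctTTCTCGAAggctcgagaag
Hspb1: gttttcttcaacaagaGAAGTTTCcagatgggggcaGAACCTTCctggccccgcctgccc
All 30 bases printed for Hspe1 also lie in an annotated exon of Hspd1, its chaperonin partner on the opposite strand, and 26 of the 30 printed for Hsph1 lie in an exon of Hsph1 itself. The 3-unit match of Hsph1 and the 2-unit match of Bag3 lay after the start site of the window. Neither window of Dnajb1 held any of these motifs, which says only that these letters are not in these 300 bases. A match is a description of the letters and was not tested as a binding site.

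The levels of the 10 chaperones spanned a wide range within the same tissue, as the plot of expression by gene and group shows. Hspa8, the constitutive HSP70, had the highest mean over the 13 mice (4.52 log2 RPKM) and lay above 99.3% of all genes in the table. It was followed by Hsp90ab1 (4.29), Hsp90aa1 (2.72), Hspe1 (2.26), Hspb1 (2.12), Bag3 (1.13), Hsph1 (0.75), Dnajb1 (0.41), Hspa1b (-0.74) and Hspa1a (-1.36). The steps from Hsp90ab1 to Hsp90aa1, from Hsp90aa1 to Hspe1, from Hspb1 to Bag3 and from Hspa1b to Hspa1a were found in 13 of 13 mice. Neighbours that were not separated in every mouse were Hspa8 and Hsp90ab1 (12 of 13 mice, mean difference 0.23 log2 units, SD 0.15), Hspe1 and Hspb1 (11 of 13, 0.14, SD 0.17), Bag3 and Hsph1 (11 of 13, 0.38, SD 0.31), Hsph1 and Dnajb1 (11 of 13, 0.34, SD 0.35) and Dnajb1 and Hspa1b (12 of 13, 1.15, SD 0.47). Both constitutive proteins of the HSP70 and HSP90 families thus had more mRNA than their inducible relatives in the pancreas of all 13 mice.

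**Figure D1:**
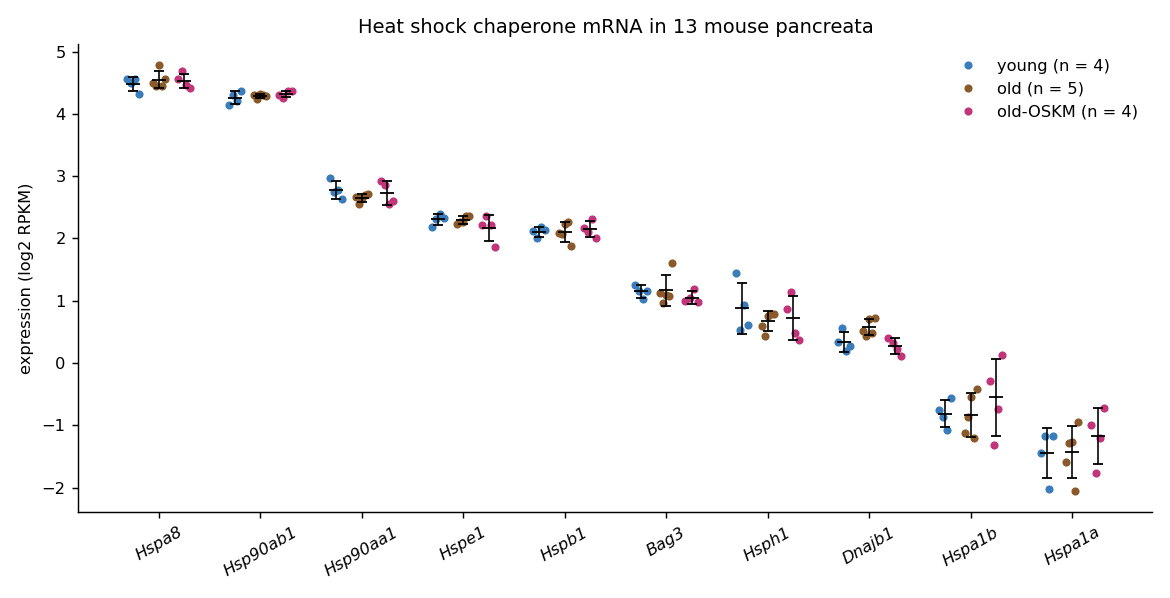
Expression of the 10 chaperone genes (log2 RPKM, vertical axis), ordered by their mean over 13 mice. Each point is 1 mouse of the young, old or old-OSKM group, and black bars give the group mean ± SD; the 3 groups of a gene overlap except for Dnajb1 between old and old-OSKM mice.

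Values of some members rest on sequence that other genes share, which bears on how well reads could be assigned. Of the 50-base stretches (the read length) of the longest GENCODE transcript, 66.3% of Hspa1a and 62.3% of Hspa1b also occur in another gene, mostly in each other. The share was 74.8% for Hspa8, with 39.6% occurring in 5 or more genes (reads with so many locations were excluded by the authors), 58.5% for Hsp90aa1, 51.6% for Hspb1 and 44.8% for Hspe1. It was 4.49% for Hsp90ab1, 0.441% for Dnajb1 and 0 for Hsph1 and Bag3. Reads were sequenced in pairs, and these shares count single stretches and not pairs. Exons of Hspa1a overlapped those of Gm20481 on the opposite strand over 19% of their bases, those of Hspe1 overlapped Hspd1 over 7.6%, and those of Hspa8 held snoRNA genes over 6.09%. The library kit does not mark strand, so reads of overlapping genes cannot be told apart.

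None of the 10 chaperones passed the study's threshold (fold change above 1.5 and raw p below 0.01, limma with all 3 groups in one fit) in any comparison. Of all 23366 genes, 0.886% passed between old and young mice, 0.753% between old-OSKM and old mice, and 0.625% between old-OSKM and young mice. With p-values adjusted by Benjamini-Hochberg over the whole table, again 0 of the 10 members was below 0.05, against 0.0813%, 0.00428% and 0.0428% of all genes in the same order. At an unadjusted p below 0.05, without a limit on fold change, 1 member was found between old and young mice (5.52% of all genes), 1 between old-OSKM and old mice (8.07%) and 0 between old-OSKM and young mice (5.07%), and both cases were Dnajb1. With 10 members, counts of 0 and 1 are near these shares of all genes.

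The intervals of the differences show how large a change could have been missed. The 95% confidence interval lay wholly within a 1.5-fold change in either direction for 7 of the 10 members between old and young mice, 8 between old-OSKM and old mice, and 7 between old-OSKM and young mice. The same held for 67.9%, 66.3% and 65.9% of all genes, and for 88.8%, 85.9% and 86.7% of the 8410 genes with a mean above 0 log2 RPKM. The intervals of Hspa1a and Hspa1b reached beyond 1.5-fold in every comparison, and that of Hsph1 did so in both comparisons with young mice. The median difference of the 10 members was 0.012 between old and young, 0.031 between old-OSKM and old, and -0.004 between old-OSKM and young mice, beside 0.001, -0.039 and -0.038 log2 units over all genes. The comparisons share groups of mice, so they are not independent of each other.

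**Figure D2:**
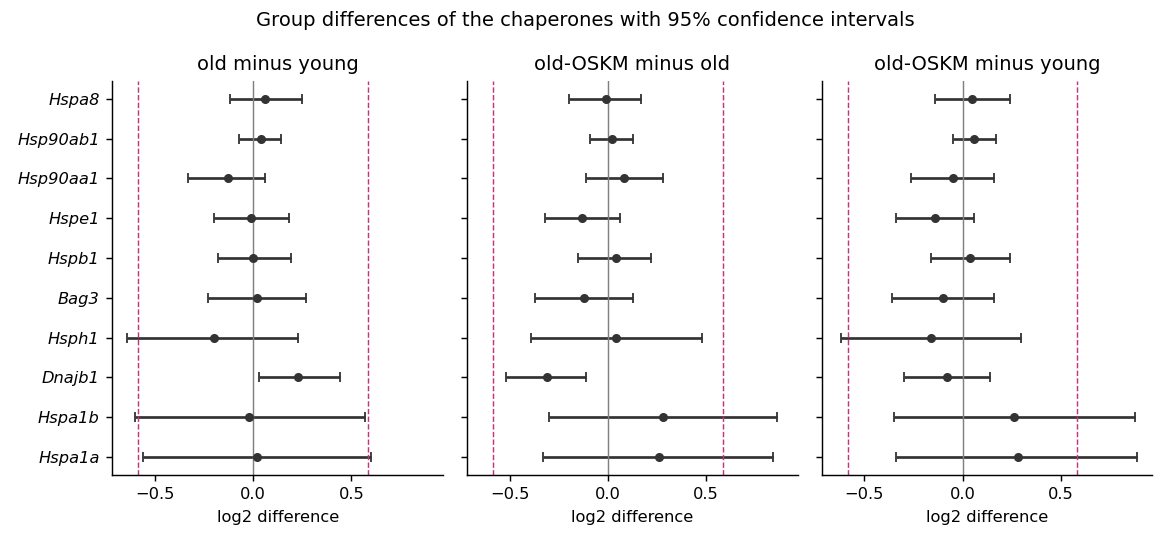
Log2 difference between group means (horizontal axis) for each chaperone in the 3 comparisons. Points are limma estimates, bars are 95% confidence intervals and dashed lines mark a 1.5-fold change; the intervals of Hspa1a and Hspa1b cross a dashed line in each panel, and the interval of Dnajb1 excludes 0 in the first 2.

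The inducible HSP70 genes Hspa1a (chr17:34969359-34972156) and Hspa1b (chr17:34956429-34959238) had the widest spread between mice of one group. Hspa1a measured -1.45, -1.17, -2.02 and -1.17 log2 RPKM in the young mice, -1.59, -1.29, -1.27, -2.05 and -0.95 in the old mice, and -1.0, -1.77, -1.21 and -0.72 in the old-OSKM mice. Hspa1b measured -0.75, -0.87, -1.07 and -0.56 in young mice, -1.13, -0.87, -0.55, -1.20 and -0.41 in old mice, and -0.28, -1.31, -0.74 and 0.13 in old-OSKM mice. The groups overlapped for both genes, and the old-OSKM group held the highest Hspa1b value (mouse 4) as well as the lowest (mouse 2). The old-OSKM mean exceeded the old mean by 0.26 log2 units for Hspa1a (SE 0.27, 95% interval -0.33 to 0.84, limma adjusted p = 0.663) and by 0.28 for Hspa1b (SE 0.27, -0.30 to 0.86, adjusted p = 0.64). Between old and young mice the differences were 0.02 (-0.56 to 0.60) and -0.02 (-0.60 to 0.57). Within a group the residual SD was 0.422 for Hspa1a and 0.421 for Hspa1b, larger than in 80.9% and 80.8% of all genes. Both genes had a mean below 0 log2 RPKM, so neither could be ranked among the genes with a mean above 0.

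As reads of this pair are largely interchangeable, their RPKM values were also summed. The sum was -0.06, -0.01, -0.47 and 0.17 log2 RPKM in young mice, -0.34, -0.07, 0.14, -0.56 and 0.34 in old mice, and 0.41, -0.52, 0.05 and 0.77 in old-OSKM mice. It also overlapped between the groups, and the old-OSKM mean exceeded the old mean by 0.27 log2 units. Hspa1b was above Hspa1a in 13 of 13 mice, by 0.29 to 0.95 log2 units (mean 0.62 ± 0.20 SD, n = 13). Without old-OSKM mouse 4 the difference between old-OSKM and old mice fell to 0.11 for Hspa1a and 0.05 for Hspa1b. For Hspa1a it fell as far, to 0.1, without old mouse 4, which had the lowest Hspa1a value. With each of the 13 mice left out in turn, the difference ran from 0.1 to 0.46 for Hspa1a and from 0.05 to 0.54 for Hspa1b. With the mean z-score of all genes as a covariate it was 0.09 for Hspa1a and turned to -0.02 for Hspa1b, and the difference of Hspa1b from young mice went from 0.26 to -0.00425.

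Hspa8 (chr9:40801276-40805202), which folds newly made proteins and drives chaperone-mediated autophagy, differed little between groups. It measured 4.56, 4.50, 4.56 and 4.32 log2 RPKM in young mice, 4.50, 4.44, 4.78, 4.45 and 4.56 in old mice, and 4.56, 4.68, 4.47 and 4.42 in old-OSKM mice. All differences between groups were between -0.01 and 0.06 log2 units, and the 95% intervals of all 3 lay between -0.20 and 0.25. Hspa8 stayed within 0.47 log2 units from the lowest to the highest of the 13 mice.

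Dnajb1 (chr8:83608175-83612653), the J-domain protein that delivers clients to HSP70, was the member whose groups differed most clearly. It measured 0.34, 0.57, 0.20 and 0.27 log2 RPKM in young mice, 0.52, 0.44, 0.71, 0.48 and 0.73 in old mice, and 0.41, 0.33, 0.22 and 0.11 in old-OSKM mice. All 4 old-OSKM mice lay below all 5 old mice, whereas the young group overlapped the old group through young mouse 2. The old-OSKM mean was lower than the old mean by a log2 difference of -0.31 (SE 0.09, 95% interval -0.52 to -0.11, a 1.24-fold change, limma adjusted p = 0.547). The old mean exceeded the young mean by 0.23 (SE 0.09, 0.03 to 0.44, 1.17-fold, adjusted p = 0.809), and old-OSKM mice were close to young mice (-0.08, -0.30 to 0.14). The fold changes were under the threshold of 1.5, and the adjusted p-values did not pass.

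Groups that did not overlap were found for 0 of the 10 members between old and young mice, where 2.71% of all genes had them, for 1 (Dnajb1) between old-OSKM and old mice (1.73% of all genes), and for 0 between old-OSKM and young mice (1.9%). For Dnajb1 between old-OSKM and old mice, the two-sided exact permutation p over the 126 splits of the 9 mice was 0.00794, the smallest these groups allow, which follows from the lack of overlap, adds nothing to it and is not corrected for the number of genes. The exact test gave p = 0.0635 between old and young mice. The difference between old-OSKM and old mice stayed negative in all alternatives, from -0.36 to -0.18. Without old-OSKM mouse 4, which had the lowest Dnajb1 value, it was -0.26, and with a covariate for the run of the identifiers (10 mice in one run and 3 in another) it was -0.32. With the mean z-score of all genes as a covariate it was -0.25. The second run of identifiers held 2 young mice, 1 old mouse and no old-OSKM mouse, so its covariate is a weak check on this difference.

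Hsph1 (chr5:149616843-149636498), the HSP110 exchange factor, varied more between mice than between groups. It measured 1.44, 0.53, 0.93 and 0.61 log2 RPKM in young mice, 0.60, 0.44, 0.75, 0.79 and 0.79 in old mice, and 0.87, 1.14, 0.49 and 0.37 in old-OSKM mice. Its residual SD of 0.313 was larger than that of 89.9% of the genes with a mean above 0 log2 RPKM and of 69.5% of all genes. The range was set by young mouse 1 at the top and old-OSKM mouse 4 at the bottom. The old minus young difference was -0.20 (SE 0.20, 95% interval -0.64 to 0.23, limma adjusted p = 1.0), and it was -0.01 without young mouse 1. The old-OSKM minus old difference was 0.04 (-0.39 to 0.48).

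Bag3 (chr7:128523583-128546981), which links HSP70 and small heat shock proteins to selective autophagy, measured 1.26, 1.15, 1.03 and 1.16 log2 RPKM in young mice, 1.13, 0.97, 1.09, 1.07 and 1.61 in old mice, and 1.00, 1.04, 1.19 and 0.98 in old-OSKM mice. Old mouse 5 stood above the 12 others, whose values lay between 0.97 and 1.26. The group differences were 0.02 between old and young (95% interval -0.23 to 0.27) and -0.12 between old-OSKM and old mice (-0.37 to 0.13, limma adjusted p = 0.634). Without old mouse 5 the first was -0.09 and the second -0.01.

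The pair of HSP90 genes differed in how much they varied. Hsp90ab1 (chr17:45567778-45573261), the constitutive form, measured 4.15, 4.31, 4.2 and 4.36 log2 RPKM in young mice, 4.31, 4.24, 4.32, 4.30 and 4.29 in old mice, and 4.30, 4.25, 4.36 and 4.36 in old-OSKM mice. Its residual SD was 0.063, smaller than in all but 2.7% of the genes with a mean above 0, and every interval of its differences was within -0.09 to 0.17 log2 units. Hsp90aa1 (chr12:110691036-110696395), the inducible form, measured 2.97, 2.74, 2.78 and 2.64 in young mice, 2.66, 2.55, 2.65, 2.69 and 2.71 in old mice, and 2.92, 2.86, 2.55 and 2.60 in old-OSKM mice. The old-OSKM group was split, with mice 1 and 2 above all old mice and mice 3 and 4 at the lower end of the old range. Its residual SD was 0.133, and its differences were -0.13 between old and young (95% interval -0.33 to 0.06) and 0.08 between old-OSKM and old mice (-0.11 to 0.28).

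The small heat shock protein Hspb1 (chr5:135887919-135889563), which holds unfolded proteins without ATP, measured 2.12, 2.00, 2.18 and 2.13 log2 RPKM in young mice, 2.09, 2.07, 2.23, 2.27 and 1.88 in old mice, and 2.16, 2.11, 2.32 and 2.01 in old-OSKM mice. The 3 group means were 2.11, 2.11 and 2.15, and the interval between old-OSKM and old mice ran from -0.15 to 0.22. Hspe1 (chr1:55088148-55091317), the lid of the mitochondrial chaperonin, measured 2.18, 2.32, 2.40 and 2.33 in young mice, 2.24, 2.26, 2.27, 2.36 and 2.36 in old mice, and 2.21, 2.36, 2.22 and 1.87 in old-OSKM mice. The low mean of Hspe1 in old-OSKM mice rested on mouse 4, the lowest of the 13. The old-OSKM minus old difference was -0.13 (95% interval -0.32 to 0.06, limma adjusted p = 0.608), and it was -0.04 without that mouse.

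Old-OSKM mouse 4 stood apart from the other 12 mice over the whole table. Its median absolute deviation from the median of the other mice was 0.29 log2 units over 8410 genes, against 0.0726 to 0.125 in the 12 others. Among the 10 chaperones it had the highest value of Hspa1a and Hspa1b and the lowest value of Hsph1, Dnajb1 and Hspe1, so the set did not move in one direction in this mouse. The heat map of deviations shows it beside the next most extreme mice, young mouse 1 (the highest Hsph1 and Hsp90aa1 and the lowest Hsp90ab1) and old mouse 5 (the highest Dnajb1 and Bag3 and the lowest Hspb1). It also had the highest summed level of the islet markers (9.01 log2 RPKM), the fibroblast and stellate (6.23), duct (5.63), smooth muscle (2.63), endothelial (4.58), adipocyte (3.98) and erythroid markers (6.71) and the immediate early genes (4.82), and the lowest of the acinar markers (13.91). The B and plasma cell, T cell and macrophage sums were highest in old-OSKM mouse 1. Their part in its chaperone values was not tested.

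**Figure D3:**
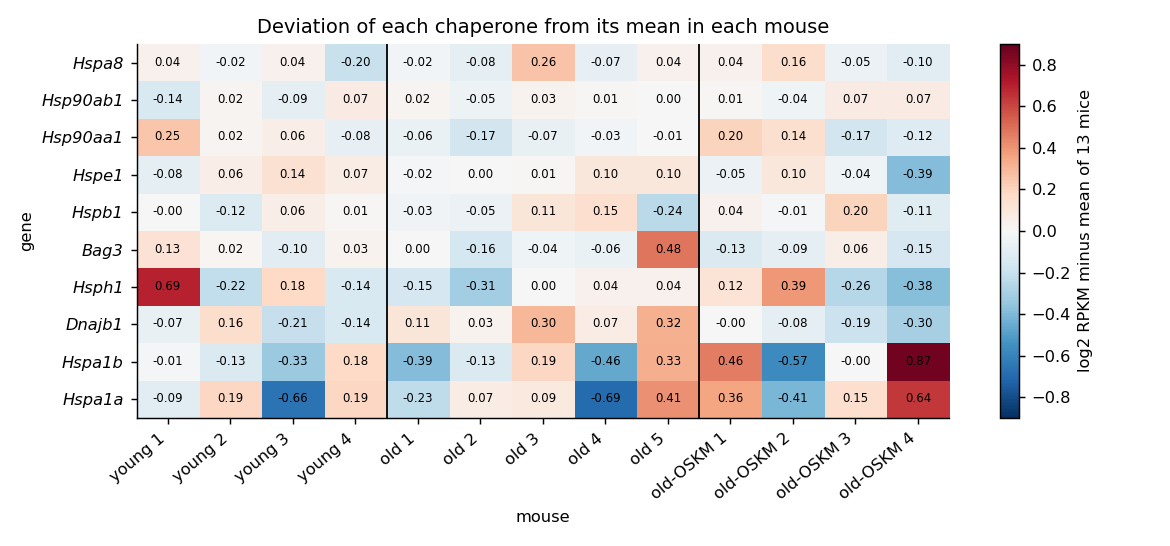
Deviation of each chaperone (rows) from its mean over the 13 mice (columns), in log2 units as printed in each cell, with vertical lines between the young, old and old-OSKM groups. Dnajb1 is above its mean in all 5 old mice and at or below it in all 4 old-OSKM mice, whereas Hspa1a and Hspa1b deviate in both directions within each group.

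The tissue label and the make-up of the samples were checked with marker lists. The summed level of 15 acinar markers was between 13.91 and 14.0 log2 RPKM in all 13 mice, so that the markers of the exocrine pancreas were high throughout. Quantile normalisation gives the top ranks nearly the same values in every mouse. Ctrb1 (11.11), Cela2a (11.0) and Amy2a5 (10.8) had the same value in all 13 mice. The narrow range of the acinar sum therefore cannot show that acinar content was equal. Between old-OSKM and old mice, 3 of 8 fibroblast and stellate markers, 1 of 10 macrophage markers and 1 of 8 adipocyte markers passed the threshold upwards, beside 0.753% of all genes. No marker of any list had a limma adjusted p below 0.05 in any comparison. The islet markers had a negative difference in 12 of 12 genes (median -0.538), the B and plasma cell and the T cell markers a positive one in 7 of 7 each (medians 0.558 and 0.623), and none of these passed. Over all 23366 genes, 14741 had a negative and 8623 a positive difference in this comparison. The sums of the first 3 lists ranged from 4.38 to 4.75 in old and 4.77 to 6.23 in old-OSKM mice for fibroblasts, from 3.64 to 4.44 and 4.24 to 5.67 for macrophages, and from 2.23 to 2.86 and 2.38 to 3.98 for adipocytes. Between old and young mice, 1 of 7 B and plasma cell markers passed upwards and 2 of 8 fibroblast and stellate markers passed downwards, beside 0.886% of all genes. Between old-OSKM and young mice, 4 of 7 B and plasma cell markers (median 1.79) and 1 of 7 T cell markers (median 1.087) passed upwards, beside 0.625% of all genes. None of the 14 immediate early genes, which respond to handling and stress within minutes, passed in these comparisons, although 13 of 14 had a positive difference between old-OSKM and old mice (median 0.204, sums of 4.0 to 4.44 in old and 4.12 to 4.82 in old-OSKM mice). Their part in the small chaperone differences was not tested.

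It was next asked whether the chaperones varied together from mouse to mouse within the groups. Deviations from the group means were correlated over the 13 mice for 45 pairs of members and 50 pairs of a member with Hsf1, Hsf2, Hspd1, Hspa5 or Stip1, with two-sided exact permutation p-values over all 69120 rearrangements within groups. Only Hspa1a with Hspa1b passed after adjustment over the 95 pairs by Pearson's r (r = 0.87, exact p = 0.000188, adjusted p = 0.0179, Spearman's rho = 0.89, exact p = 0.000448, adjusted p = 0.0213). It was 0.80 without the 2 mice farthest from the median of Hspa1a, 0.88 in the 10 mice of the first run of sample identifiers and 0.86 without old-OSKM mouse 4. As 58.8% of the 50-base stretches of Hspa1a occur in Hspa1b, the part that shared reads have in this correlation was not tested.

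A further group of pairs had similar sizes of r and missed the adjusted threshold by Pearson's r, while Hsph1 with Stip1 and Hsp90ab1 with Hspa5 passed it by Spearman's rho. Hsph1 and Stip1, the co-chaperone that joins HSP70 to HSP90, gave r = 0.91 (exact p = 0.00123, adjusted p = 0.0584) and rho = 0.95 (exact p = 0.000159, adjusted p = 0.0151). Hsph1 gave r = 0.88 with Hspd1, the mitochondrial HSP60 (exact p = 0.00195, adjusted p = 0.0618, rho = 0.80, exact p = 0.0104), 0.91 with Hspa5, the HSP70 of the endoplasmic reticulum (exact p = 0.00391, adjusted p = 0.0793, rho = 0.82, exact p = 0.0106), and 0.87 with Hsp90aa1 (exact p = 0.00454, adjusted p = 0.0793, rho = 0.87, exact p = 0.00447). Hsp90ab1 and Hspa5 ran in opposite directions (r = -0.86, exact p = 0.00501, adjusted p = 0.0793, rho = -0.94, exact p = 0.00156, adjusted p = 0.0495). Without the 2 mice farthest on the first gene these values were 0.85, 0.85, 0.83, 0.88 and -0.84. In the first run of identifiers they were 0.92, 0.88, 0.90, 0.86 and -0.93. All mice share one normalisation, and the second run held only 3 mice, too few for its own value.

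**Figure D4:**
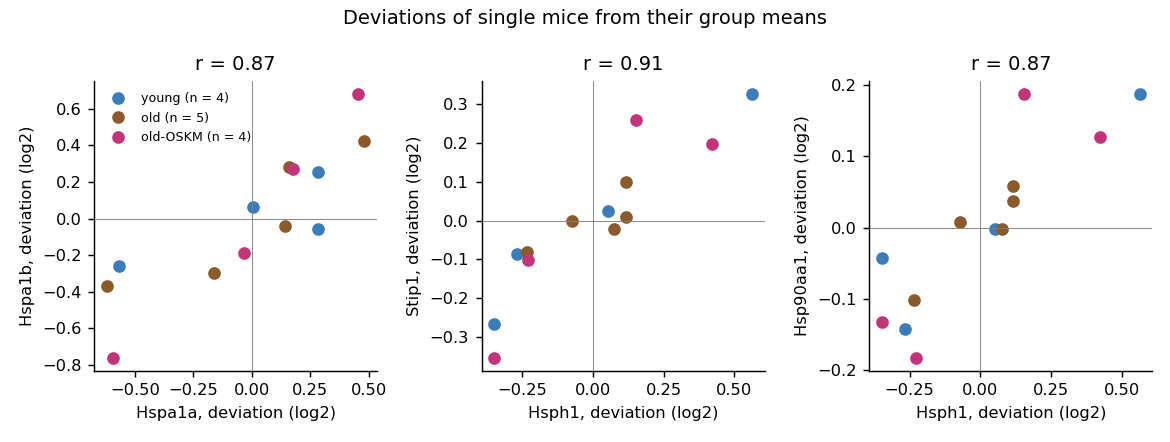
Deviation of each mouse from its group mean (log2 units) for Hspa1a against Hspa1b, Hsph1 against Stip1 and Hsph1 against Hsp90aa1, with 1 point per mouse coloured by group. Pearson's r over the 13 mice is 0.87, 0.91 and 0.87, and mice of all 3 groups lie along each trend.

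The chaperones did not all vary as one block. Of the 45 member pairs, 28 had a positive and 17 a negative r. Dnajb1, the member with the clearest group difference, had its highest r with Hspa8 (0.56, exact p = 0.0764, adjusted p = 0.381, rho = 0.53, exact p = 0.101). Hspe1 and Hspd1, whose products form one chaperonin and whose start sites share a promoter region, gave r = 0.26 (exact p = 0.641, adjusted p = 0.818, rho = 0.21, exact p = 0.571), which turned to -0.07 without old-OSKM mouse 4 and to -0.40 without the 2 mice farthest on Hspe1. The mean z-score of the 10 members was between -0.51 (old mouse 2) and 0.54 (old mouse 5). The non-member genes most like it over the 13 mice, out of 8387 with a mean above 0, were Fat1 (r = 0.81), Snf8 (0.81), G3bp2 (0.79), Nol9 (0.78) and Naa25 (0.77), which are given as a description of likeness only.

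The regulators and partners of the 10 members were then examined as 96 other genes in 9 lists. Under the same threshold, 0 of the 96 passed between old and young mice, 1 between old-OSKM and old mice and 0 between old-OSKM and young mice (background shares as above, limma). At an unadjusted p below 0.05 the counts were 5, 7 and 3. The medians over the 96 genes were -0.035, -0.004 and -0.032 log2 units. The gene that passed was Hsf2bp, which encodes a binding partner of heat shock factor 2, with -1.81, -1.31, -1.94, -1.70 and -1.58 log2 RPKM in old mice and -2.57, -1.54, -2.66 and -2.82 in old-OSKM mice. Its groups overlapped through old-OSKM mouse 2, and the difference was -0.73 (SE 0.23, limma adjusted p = 0.547).

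Among the heat shock factors, Hsf1 itself measured 0.58, 0.78, 0.65, 0.93 and 0.90 log2 RPKM in old mice and 0.40, 0.68, 0.57 and 0.60 in old-OSKM mice. The groups overlapped, and the difference was -0.21 (SE 0.09, 95% interval -0.40 to -0.01, limma adjusted p = 0.547), below the threshold on fold change. Between old and young mice it was 0.08 (-0.12 to 0.28). Hsf2 gave 0.24 between old and young mice (0.01 to 0.46, limma adjusted p = 0.856) and -0.16 between old-OSKM and old mice (-0.39 to 0.06). Hsf1 mRNA is not a measure of its activity, which is set by trimerisation and phosphorylation of the protein.

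In the other HSP70 and HSP110 genes, Hspa2, a testis-enriched HSP70, measured -1.21, -1.25, -1.27, -1.08 and -1.56 log2 RPKM in old mice and -0.70, -0.79, -1.03 and -0.72 in old-OSKM mice. All old-OSKM values were above all old values, and the difference of 0.46 (SE 0.13, 95% interval 0.19 to 0.74, 1.38-fold, limma adjusted p = 0.547) was under the 1.5-fold limit. The young mice overlapped the old-OSKM mice at -1.14, -1.51, -1.06 and -0.93. Of the 96 genes, 1 was wholly higher in old-OSKM than in old mice (Hspa2). Another 1, in the list of the chaperonin TRiC and prefoldin, was wholly lower. Groups did not overlap for 1.73% of all genes in this comparison. In the remaining lists the genes with the smallest raw p were Dnajc13 of the J-domain proteins (0.17 between old and young), Unc45a of the HSP90 co-chaperones (-0.16 between old and young), Hspb3 of the small heat shock proteins (0.63 between old-OSKM and young), Stub1 of the exchange factors, a ubiquitin ligase for HSP70 clients (-0.20 between old-OSKM and old), Cct2 of the chaperonin TRiC (-0.14 between old-OSKM and young), Hspa9 of the mitochondrial chaperones (0.13 between old and young) and Serpinh1 of the other HSF1 targets, a collagen chaperone (0.45 between old-OSKM and old). Their limma adjusted p-values were between 0.547 and 0.914.

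The partners fixed beside the members were close to level between the groups or wide in their intervals. Between old-OSKM and old mice the difference was 0.03 for Stip1 (95% interval -0.27 to 0.33) and 0.06 for Hspd1 (-0.11 to 0.23). Hspa5 had a difference of 0.32 (-0.22 to 0.86, limma adjusted p = 0.608), with values of 4.90 to 5.13 in old and 4.84 to 5.93 in old-OSKM mice. Its measured mean, 5.16 log2 RPKM, was the highest of the HSP70 genes here. Whether Hspa5 mRNA exceeded that of Hspa8 cannot be decided. Of the Hspa8 stretches, 39.6% occur in 5 or more genes, and reads with so many locations were excluded. The shared stretches of Hspa5 were not counted. The lists of the cytosolic chaperonin TRiC with prefoldin and of the mitochondrial chaperones were the tightest, and all 14 and all 11 of their genes had a 95% interval within a 1.5-fold change in each of the 3 comparisons. Most genes with a mean above 0 log2 RPKM had such an interval too (88.8%, 85.9% and 86.7% in the order used above).

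**Figure D5:**
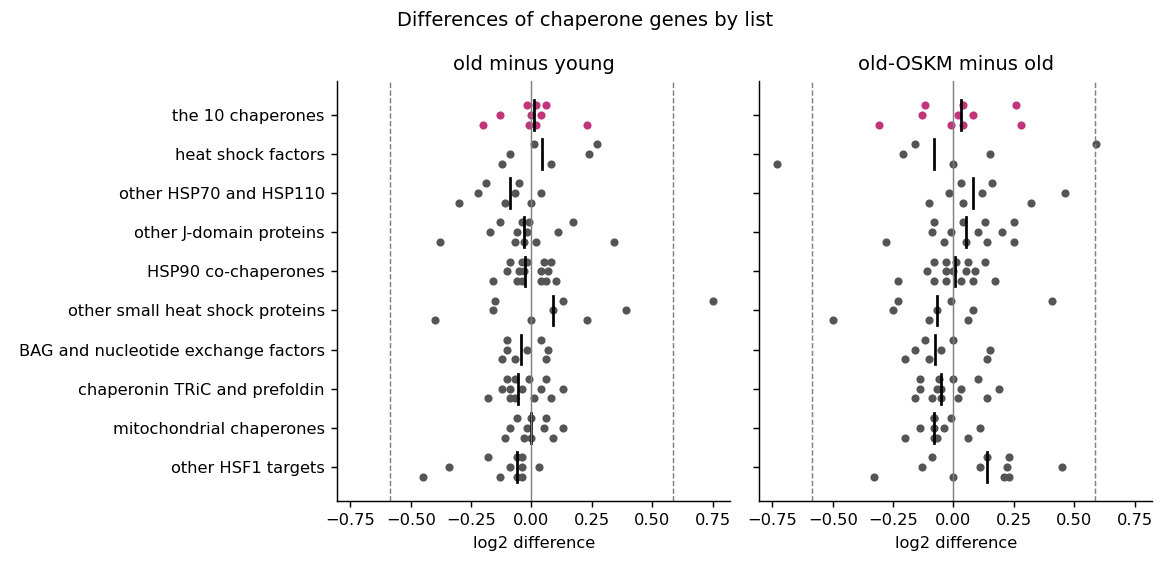
Log2 difference (horizontal axis) of each gene in the set of 10 chaperones and in 9 other chaperone lists (vertical axis) between old and young mice (left) and between old-OSKM and old mice (right). Each point is 1 gene, short black lines are list medians and dashed lines mark a 1.5-fold change; the 10 chaperones all lie inside the dashed lines, with medians of 0.012 and 0.031.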

How the data were processed

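The deposited table holds, per Entrez gene, log2 RPKM values that the authors made by aligning paired reads to mm10 with STAR 2.3.0e, estimating isoform RPKM with Casper (reads with 5 or more locations excluded), summing per gene, taking log2 and quantile normalising. Whether a further correction by total reads is in the values is not given in the sources used here. After sorting, values of the mice lay within 0.0116 of each other. The study's methods give 1 general number of reads obtained for all samples, and the table holds neither counts nor a total for each mouse, so no counting interval could be set.

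From these values, all 23366 genes of the 13 mice were fitted with limma 3.58.1 in R 4.3.3 (lmFit, contrasts.fit and eBayes with default settings, 3 groups, no covariate, no pseudocount, no filter). Adjusted p-values are Benjamini-Hochberg over all genes. Groups came from the labelled condition, and replicate numbers only name mice. One library came from each mouse. Members and lists were chosen with earlier results of these data known. The genes named are the 10 members, the called genes (or, with none called, the one with the smallest raw p) of each other list, Hsf1, Hsf2, Hspd1, Hspa5 and Stip1, and the 5 genes most like the members' mean z-score. Correlations, exact tests, motif searches and figures used Python 3.11.15, numpy 2.4.6, pandas 2.3.3 and matplotlib 3.10.9. Sequences came from RefSeq (GRCm38.p6), and shared 50-base stretches and exons from GENCODE. The fit and the correlation test were tested on simulated data. Alternatives were a repeated quantile normalisation, centring on the sample median, pseudocounts of 1 and 0.1, a filter on a mean log2 RPKM above 0, the 2 compared groups alone, eBayes with trend and robust, a covariate (identifier numbers 609 to 621 against 641 to 643, or the mean z-score of all genes), other thresholds, and each mouse left out.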

Additional observations from a re-analysis of the deposited data

Results flagged for a closer look

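Bag3 in old mouse 5 measured 1.61 log2 RPKM, against 1.13 in the nearest of the 4 other old mice, and was flagged because this gap took up 0.749 of the range of the old group, more than Dixon's 95% limit for 5 samples allows. It was 1 flag among 51 groups tested (10 members and 7 partner genes in 3 groups), and chance alone flags about 1 in 20 groups. The cause was not tested.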

How the results depend on the processing

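Over the 30 member differences, 649 of 687 alternative values kept their direction and their side of the threshold, 38 turned in sign, and no member passed the threshold in any of the 22 refits. Many of the 649 could not turn in sign, because their setting leaves a difference of group means unchanged. Such settings were the compared groups alone, trend and robust eBayes, the filter on the mean and the exact test. Leaving out a mouse outside the comparison is another. The 649 values are therefore not all checks of direction. With only raw p under 0.05 required, 1 member passed between old and young mice and 1 between old-OSKM and old mice (Dnajb1), and with adjusted p under 0.05 none did. No paired analysis was possible because the labels give no replicate numbers that the groups share.

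The differences that turned in sign were between -0.16 and 0.28 as reported and had raw p of 0.229 or more after turning, and the largest was Hspa1b between old-OSKM and old mice (0.28). With Hspa1a and Hspa1b summed, the old minus young difference of Hspa1a was -0.0049. With a covariate for the run of identifiers, old minus young was 0.05 for Hspa1b, -0.02 for Hspb1 and 0.02 for Hspe1. With the mean z-score of all genes as a covariate, Hspa1b gave 0.01 between old and young, -0.02 between old-OSKM and old and -0.00425 between old-OSKM and young mice, Hspa8 gave 0.04 (old-OSKM minus old) and Hspb1 gave -0.000992 (old minus young). Leaving out 1 mouse at a time, old minus young ran from -0.17 to 0.18 for Hspa1a, -0.12 to 0.07 for Hspa1b, -0.04 to 0.06 for Hspb1, -0.09 to 0.07 for Bag3 and -0.05 to 0.02 for Hspe1. Old-OSKM minus old ran from -0.07 to 0.04 for Hspa8, -0.10 to 0.16 for Hsph1 and -0.02 to 0.08 for Hspb1. Old-OSKM minus young ran from -0.01 to 0.09 for Hspa8, -0.30 to 0.03 for Hsph1, -0.11 to 0.01 for Hsp90aa1 and -0.01 to 0.09 for Hspb1. The causes were not tested.

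For Dnajb1 between old and young mice the raw p ranged from 0.00567 to 0.0931 over all alternatives, and between old-OSKM and old mice from 0.00313 to 0.0317. The correlations of Hspa1a with Hspa1b, Hsph1 with Stip1 and Hsp90ab1 with Hspa5 kept an exact p under 0.05 in alternatives added after seeing the data (2 pseudocounts, median centring and each mouse left out).

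Of the 96 other chaperone genes, the single call between old-OSKM and old mice (Hsf2bp) gave way to 0 with either pseudocount, with the filter on the mean, with only the 2 groups compared, and with trend and robust eBayes, and ran from 0 to 1 leaving out 1 mouse. Between old and young mice 1 passed with only the 2 groups compared. Between old-OSKM and young mice 1 passed with the run of identifiers as a covariate, and 0 to 1 leaving out 1 mouse.

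Over all genes, the calls between old and young mice fell from 207 to 16 with pseudocount 1, 116 with pseudocount 0.1 and 44 with the filter. Between old-OSKM and old mice they fell from 176 to 2, 77 and 35, and to 90 with the mean z-score as a covariate (51 higher and 39 lower, against 136 and 40), and ranged from 94 (without old-OSKM mouse 1) to 338 (without old-OSKM mouse 2) leaving out 1 mouse. Without old-OSKM mouse 4, 88 were higher and 93 lower. Between old-OSKM and young mice they fell from 146 to 8, 76 and 19, and reached 253 without old-OSKM mouse 2. The filter removed Hspa1a and Hspa1b, which then had no value. The groups of 4 and 5 mice and the lack of counts limit what can be seen, most of all for Hspa1a and Hspa1b.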
